A study of Mus musculus with 8 samples.

Results

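The interferon regulatory factors were examined as 1 gene family in epididymal white adipose tissue (eWAT) whose adipocytes lacked the RNA-binding protein HuR. Members were all genes of the table with a symbol from Irf1 to Irf9, which gave 8 of 8562 genes: Irf1, Irf2, Irf3, Irf4, Irf5, Irf7, Irf8 and Irf9. The family was chosen by measured values: Irf4 had the highest HuR-FKO to Ctrl differences of the whole table, in mRNA and in ribosome-protected fragments. Therefore the genotype differences of the members are given as a description with no p, and any count of members past a threshold stands beside the same share over all genes.

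HuR-FKO mice carried AdipoQ-Cre and 2 floxed alleles of the HuR gene Elavl1 (AdipoQ-Cre;HuRf/f), and Ctrl mice were HuRf/f littermates without Cre. Both genotypes were male and 6 weeks old. Tissue of 3 mice was pooled per replicate, and each pool was split in 2, for an mRNA library and for an RPF library. RPF are ribosome-protected fragments, the stretches of mRNA that ribosomes shield from nuclease. There were 2 pools per genotype, hence 4 groups of 2 libraries. The adiponectin promoter drives Cre in adipocytes, so the macrophages, vessels and precursor cells of the depot kept HuR. Elavl1 had mRNA levels of 41.6 and 43.3 RPKM in HuR-FKO, against 40.8 and 49.8 RPKM in Ctrl, and RPF levels of 56.0 and 63.3 RPKM in HuR-FKO, against 64.6 and 81.8 RPKM in Ctrl. The genotypes overlapped in mRNA, so the gene does not check the labels. RPKM divides the reads of a coding sequence by its length and by the total of the library, so levels can be compared between genes.

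Interferon regulatory factors bind DNA through a conserved amino-terminal domain and control interferon genes and the genes that interferon switches on. Several members also direct the development of immune cells. In mouse adipocytes Irf4 is known as a fasting-induced factor that insulin represses through Foxo1 and that favours release of fat over its synthesis, and in lymphocytes it directs plasma cell development. Irf3, Irf5 and Irf7 are switched on by kinases downstream of pathogen sensors, Irf1 and Irf2 compete for the same sites, Irf8 shapes myeloid cells, and Irf9 is the DNA-binding subunit of a complex that type I interferon activates.

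HuR binds U-rich and AU-rich stretches, mostly in 3′ untranslated regions, so the pentamer AUUUA was counted in the region of each member (GENCODE M21, GRCm38). Irf4 (NM_013674, chr13:30749226-30766976, plus strand, 8 coding exons) had 3 in 3309 bases, against a median of 5 among 963 measured genes whose region was within 25% of that length, and 80.6% of those genes had at least as many. Irf1 (NM_001159396, chr11:53770014-53778374, plus strand, 9 coding exons) had 3 in 877 bases, and 22.0% of 1325 genes of like length had at least as many. Irf5 and Irf8 had 2 each, Irf2 and Irf9 had 1 each, and Irf3 and Irf7 had 0. Over all 8204 genes with such a region, 66.4% held at least 1. The sites of Irf4 and Irf1, the members with the highest count, are shown with 10 bases on either side. They are written as DNA, 5′ to 3′, with the pentamer in capitals.
Irf4, chr13:30765202-30765226: aactatacagATTTAcctcatcttt
Irf4, chr13:30765765-30765789: acacagtagaATTTAgtttgcttgc
Irf4, chr13:30766402-30766426: tgtttttgttATTTAtctccctaaa
Irf1, chr11:53777101-53777125: aggcctttgcATTTAtttatatagt
Irf1, chr11:53777105-53777129: ctttgcatttATTTAtatagtgcct
Irf1, chr11:53777299-53777323: ttttataaaaATTTAagttgtttac
The first pair of Irf1 sites overlapped, so that 1 stretch held both, whereas the 3 sites of Irf4 stood apart. A pentamer is a match of letters and says nothing about binding of HuR. The study took the genes most enriched in its immunoprecipitation from eWAT as HuR targets. Its list of targets, read here as 195 distinct symbols, held 0 of the members. With so short a list beside 8562 measured genes, 0 of 8 says nothing about the members. Binding of HuR to the members was not tested here.

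Promoter windows of 300 bases (250 before to 50 after the start, RefSeq, GRCm38.p6) were found for all 8 members and searched on both strands for sites through which the family is known to act or to be induced. The interferon-stimulated response element core, GAAANNGAAA, was in the Irf2 window and in no other member's. It was in 3.44% of 32851 promoters of that length. The gamma-activated site, TTCNNNGAA, through which interferon gamma acts, was in the windows of Irf1, Irf2 and Irf8 and in 8.3% of all promoters. The Foxo site TGTTTAC was in none of the members' windows, Irf4 included, and in 3.65% of all promoters. Matches of Irf2, Irf1 and Irf8 are shown because such sites are the known input of interferon to the family. They carry 10 bases, or as many as the window held, on either side, with the match in capitals. A gamma-activated site of Irf2 (chr8:46739511-46739539) and a further one of Irf8 (chr8:120736195-120736223) are not printed.
Irf2 response element, chr8:46739495-46739523: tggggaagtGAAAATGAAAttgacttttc
Irf1 gamma-activated site, chr11:53769914-53769942: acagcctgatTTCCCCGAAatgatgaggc
Irf8 gamma-activated site, chr8:120736177-120736205: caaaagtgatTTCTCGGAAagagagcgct
Only letters were compared, and other windows may hold what these lack.

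Irf4 was the member that separated the genotypes most. Its mRNA level was 73.1 and 73.0 RPKM in HuR-FKO, from 516 and 589 reads, against 7.86 and 3.85 RPKM in Ctrl, from 58 and 42 reads. The means were 73.0 ± 0.0449 RPKM in HuR-FKO and 5.86 ± 2.83 RPKM in Ctrl (SD, n = 2 pools each), a ratio of 12.5. Even the closest pair of pools stood 9.29 times apart. The Ctrl pools themselves differed, with 95% Poisson intervals of 5.97 to 10.2 RPKM and 2.78 to 5.21 RPKM that did not overlap. PCR reads are not independent molecules, so these intervals may be too narrow. The log2 difference was 3.50 ± 0.23 (SE of the limma fit).

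The ribosome-protected fragments of Irf4 gave the same picture. The RPF level was 146 and 128 RPKM in HuR-FKO, from 259 and 92 reads, against 11.5 and 12.3 RPKM in Ctrl, from 18 and 12 reads. The closest pair of pools stood 10.4 times apart. The means were 137 ± 12.8 RPKM in HuR-FKO and 11.9 ± 0.506 RPKM in Ctrl (SD, n = 2 pools each), and the log2 difference was 3.42 ± 0.21 (SE). Both differences ranked 1 of 8562, and are the values that chose the family. In bulk tissue, fewer cells of a type and less RNA per cell cannot be told apart, and the same holds for more.

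**Figure D1:**
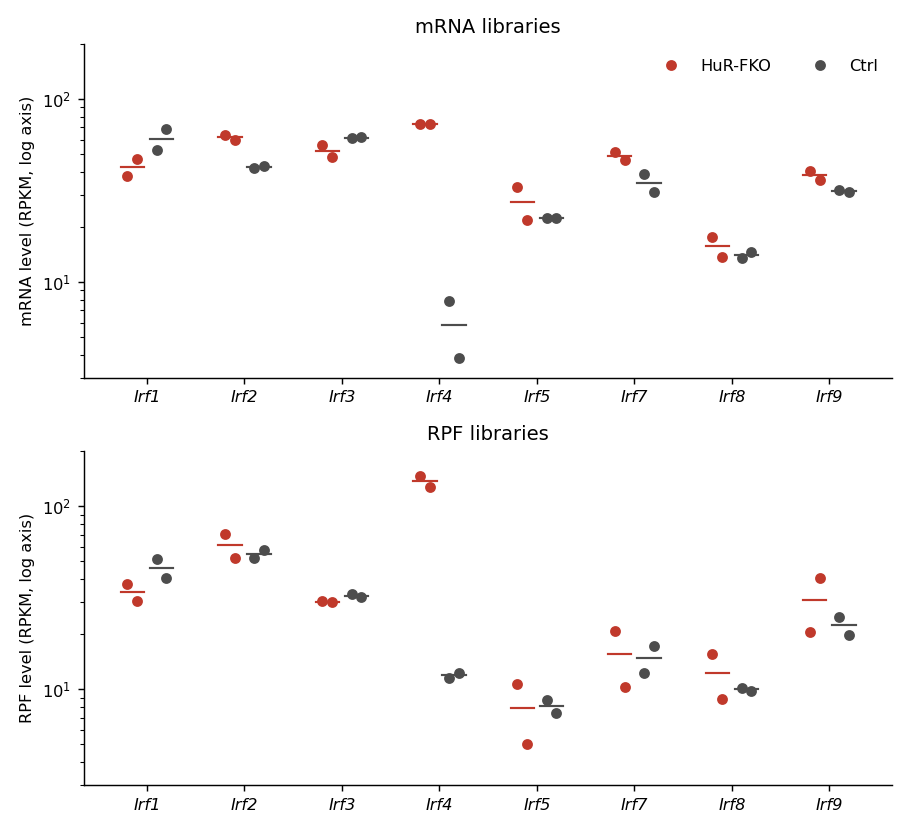
Levels of the 8 interferon regulatory factors in mRNA libraries (top) and RPF libraries (bottom), in RPKM on a log axis, with HuR-FKO left of Ctrl for each gene. Points are pools and short lines are means of 2 pools. Irf4 lies at 73.1 and 73.0 RPKM in HuR-FKO mRNA, against 7.86 and 3.85 RPKM in Ctrl mRNA, while the other 7 genes differ by less than 2-fold between genotypes.

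Irf1 and Irf2, the activator and the repressor that share binding sites, differed in opposite directions in mRNA. Irf1 had 37.9 and 46.8 RPKM in HuR-FKO, against 52.6 and 68.6 RPKM in Ctrl, a log2 difference of -0.50 ± 0.16 (SE). Irf2 (NM_008391, chr8:46739732-46847458, plus strand) had 63.5 and 59.9 RPKM in HuR-FKO, against 41.8 and 42.8 RPKM in Ctrl, a log2 difference of 0.53 ± 0.12. The pools of the genotypes did not overlap for either gene. In RPF, Irf1 had 37.8 and 30.4 RPKM in HuR-FKO, against 51.7 and 40.5 RPKM in Ctrl (-0.42 ± 0.24). Irf2 had RPF levels of 70.5 and 52.0 RPKM in HuR-FKO, against 52.1 and 57.9 RPKM in Ctrl (0.14 ± 0.22). Irf1 was thus lower in every HuR-FKO pool in both assays, whereas the RPF levels of Irf2 overlapped. Coding exons of Irf1 overlap Gm17334 on the opposite strand, and use of strand in the counting is not given in the sources used here, so reads of the pair may be mixed.

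Irf3 and Irf7 are the factors that virus-sensing kinases switch on to induce type I interferon, Irf3 being present beforehand and Irf7 being itself induced by interferon. Irf3 (NM_016849, chr7:44997648-45002848, plus strand) had mRNA levels of 55.8 and 48.2 RPKM in HuR-FKO, against 61.0 and 62.0 RPKM in Ctrl, a log2 difference of -0.24 ± 0.12 (SE). Irf7 (NM_001252601, chr7:141262706-141266481, minus strand) had 51.1 and 46.7 RPKM in HuR-FKO, against 38.7 and 31.1 RPKM in Ctrl (0.48 ± 0.14). So in mRNA every HuR-FKO pool lay below both Ctrl pools for Irf3 and above both Ctrl pools for Irf7. RPF levels of Irf3 were 30.3 and 29.9 RPKM in HuR-FKO, against 33.1 and 31.8 RPKM in Ctrl (-0.11 ± 0.22). Those of Irf7 were 20.9 and 10.3 RPKM in HuR-FKO, against 12.2 and 17.3 RPKM in Ctrl (0.02 ± 0.37). The 2 HuR-FKO pools of Irf7 lay on either side of both Ctrl pools. The lower rested on 7 reads, which allows 4.14 to 21.2 RPKM (95% Poisson interval).

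Irf5, which acts downstream of Toll-like receptors, and Irf8, a factor of macrophage and dendritic cell development, overlapped between genotypes in both assays. Irf5 (NM_012057, chr6:29526625-29541871, plus strand) had mRNA levels of 33.0 and 21.9 RPKM in HuR-FKO, against 22.3 and 22.3 RPKM in Ctrl, a log2 difference of 0.26 ± 0.18 (SE). Its RPF levels were 10.7 and 5.04 RPKM in HuR-FKO, against 8.71 and 7.40 RPKM in Ctrl (-0.10 ± 0.37). The lowest of these rested on 4 reads, which allows 1.37 to 12.9 RPKM (95% Poisson interval), so a difference of this size was not detectable at this depth. Irf8 (NM_008320, chr8:120736358-120756694, plus strand) had mRNA levels of 17.7 and 13.7 RPKM in HuR-FKO, against 13.5 and 14.6 RPKM in Ctrl (0.14 ± 0.16). Its RPF levels were 15.6 and 8.85 RPKM in HuR-FKO, against 10.2 and 9.76 RPKM in Ctrl (0.22 ± 0.33). Its lower HuR-FKO value rested on 6 reads, which allows 3.25 to 19.3 RPKM (95% Poisson interval). For both genes the spread of the HuR-FKO pools exceeded that of the Ctrl pools in each assay. In RPF the intervals given take in the other HuR-FKO pool of the same gene, so nothing is read from the RPF spread.

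Irf9, the DNA-binding subunit of the interferon-stimulated gene factor complex (NM_001159418, chr14:55603571-55610030, plus strand), had mRNA levels of 40.6 and 36.0 RPKM in HuR-FKO, against 32.0 and 31.2 RPKM in Ctrl, a log2 difference of 0.27 ± 0.12 (SE). The genotypes did not overlap in mRNA. In RPF they did, with 20.7 and 40.5 RPKM in HuR-FKO, against 24.9 and 19.8 RPKM in Ctrl (0.37 ± 0.34).

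Over the family, the genotypes did not overlap in mRNA for 6 of 8 members, of which 4 were higher and 2 lower in HuR-FKO, and 60.3% of all genes did not overlap. In RPF this held for 3 members, 1 higher and 2 lower, beside 41.8% of all genes. Past an adjusted p of 0.05 in mRNA (limma) were Irf2, Irf4 and Irf7, 3 of 8, where 14.0% of all genes were called. Irf7 was past it under 6 of 12 alternative settings, Irf2 under 10 (not without either HuR-FKO pool) and Irf4 under all 12. Irf1, not called here, was past it under 4, which were median ratio scaling, the replicate block, voom and the fit without Ctrl replicate 1. In RPF, Irf4 alone was called, where 0.444% of all genes were. As these contrasts led to the choice of the family, nothing is read from the counts. The median log2 difference of the members was 0.26 in mRNA and 0.08 in RPF, beside 0.03 and -0.05 over all genes.

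**Figure D2:**
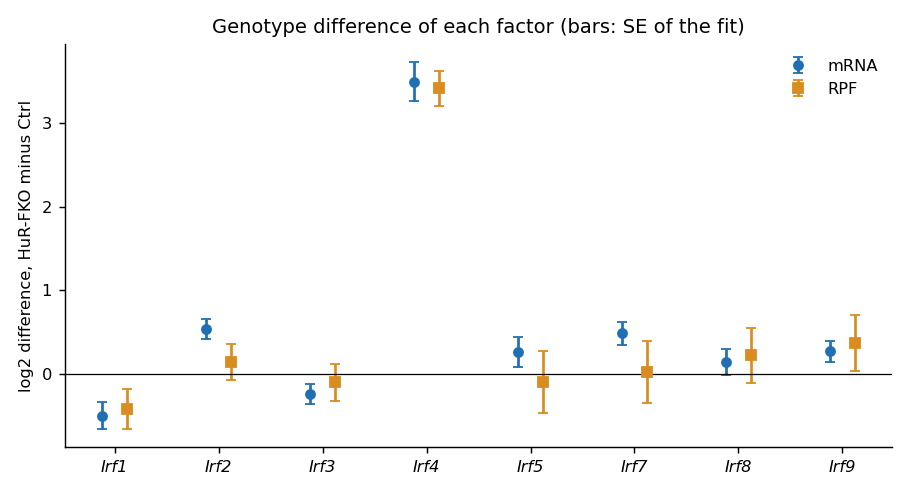
Log2 difference between HuR-FKO and Ctrl for each factor, in mRNA (circles) and RPF (squares), with the SE of the limma fit as bars. Irf4 stands at 3.50 and 3.42, and the other 7 lie between -0.50 and 0.53.

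**Figure D3:**
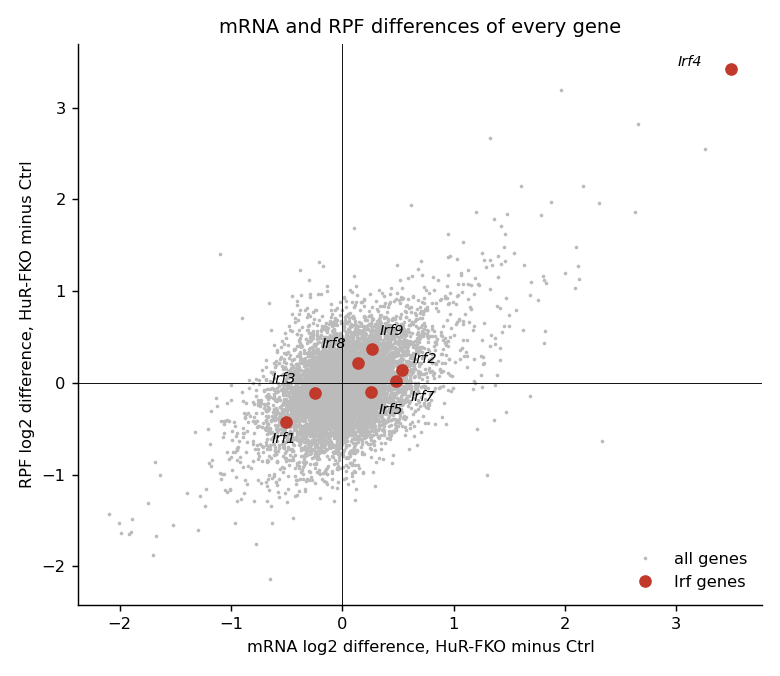
Log2 difference between HuR-FKO and Ctrl in mRNA (horizontal axis) and RPF (vertical axis) for each of 8562 genes, with the 8 factors as large points. Irf4 is the rightmost and the topmost point, and the other factors lie within the main cloud.

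The rank order of the family changed with the genotype through Irf4. In HuR-FKO mRNA the order by mean level was Irf4, Irf2, Irf3, Irf7, Irf1, Irf9, Irf5 and Irf8, running between 73.0 and 15.7 RPKM. Neighbours from Irf3 to Irf9 overlapped in their pools and cannot be placed apart. The Ctrl order was Irf3, Irf1, Irf2, Irf7, Irf9, Irf5, Irf8 and Irf4, between 61.5 and 5.86 RPKM, with overlaps of Irf3 with Irf1 and of Irf7 with Irf9. Irf4 was therefore the highest member in HuR-FKO and the lowest in Ctrl, without overlap with its neighbour in either. Among all genes it lay above 75.7% in HuR-FKO and above 5.5% in Ctrl.

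In RPF the order in HuR-FKO was Irf4, Irf2, Irf1, Irf9, Irf3, Irf7, Irf8 and Irf5, and the pools of neighbours overlapped from Irf1 to Irf3 and from Irf7 to Irf5. In Ctrl it was Irf2, Irf1, Irf3, Irf9, Irf7, Irf4, Irf8 and Irf5, and Irf4 overlapped Irf7. Irf2 lay above Irf8 and Irf5 in all 4 RPF libraries. Irf4 made up 41.7% of the summed RPF level of the family in HuR-FKO and 5.94% in Ctrl. Its part of the summed mRNA level was 20.4% in HuR-FKO and 2.15% in Ctrl. The mRNA sum was 359 RPKM in HuR-FKO and 273 RPKM in Ctrl, and the RPF sum was 329 RPKM in HuR-FKO and 201 RPKM in Ctrl (means of 2 pools).

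Ribosome load, the RPF level of a gene over its mRNA level, was fitted in Ctrl alone. The Ctrl mRNA level of Irf4 is an arm of the difference that chose the family, so its load is given with no p, and the other 7 members, which entered by name, were tested. Each library's median log2 level was set equal, and a gene's log2 load was tested against 0 in limma over the 4 Ctrl libraries. Of these 7, 4 passed an adjusted p of 0.05, 1 above and 3 below, and 53.5% of all genes passed. Over all 8 members the median log2 load was -0.06, beside 0.14 over all genes.

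In Ctrl the loads of the members ran from above 12.9% of all genes (Irf5) to above 92.6% (Irf4). The median absolute log2 load over all genes was 0.62, so a wide spread is no trait of the family. Irf4 had a log2 load of 0.90 and 1.87 in the 2 Ctrl pools and 1.38 ± 0.32 in the fit (SE), and the higher value came from the pool with its lowest mRNA level, 3.85 RPKM from 42 reads. Irf2 had 0.71 and 0.85 in the Ctrl pools, or 0.78 ± 0.15 in the fit (1.72-fold, limma adjusted p = 0.0050). The 2 Ctrl pools of Irf4 lay further apart than those of Irf2, and its RPF levels there rested on 18 and 12 reads.

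Irf5, Irf7 and Irf3 had low loads in Ctrl. Irf5 had -0.86 and -1.05 in the Ctrl pools (-0.96 ± 0.20 in the limma fit, 0.515-fold, adjusted p = 0.0064). Irf7 had -1.19 and -0.39 (-0.79 ± 0.23, 0.578-fold, adjusted p = 0.025). Irf3 had -0.46 and -0.52 (-0.49 ± 0.15, 0.710-fold, adjusted p = 0.028). Their RPF levels in the Ctrl pools rested on 15 and 8 reads for Irf5, 18 and 16 for Irf7, and 48 and 29 for Irf3. All 3 act downstream of the pathogen sensors, but no theme is read from this, since such loads were common. In Ctrl, 12.9% of all genes had a load below that of Irf5, 16.7% below Irf7 and 25.3% below Irf3. The fits of Irf1 (0.02 ± 0.20, adjusted p = 0.93), Irf8 (-0.05 ± 0.19, adjusted p = 0.85) and Irf9 (-0.08 ± 0.19, adjusted p = 0.74) did not pass. Centred on the median ratio over genes in place of library medians, which lowers each value by 0.14, the same 4 of 7 passed.

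In HuR-FKO libraries the fitted loads, here as a description, stood in the same order, with smaller sizes for Irf2 (0.45 ± 0.19, against 0.78 ± 0.15 in Ctrl) and Irf3 (-0.29 ± 0.16, against -0.49 ± 0.15 in Ctrl). In the HuR-FKO fit neither Irf2 nor Irf3 passed the threshold. Irf4 had a log2 load of 1.49 and 1.27 in the 2 HuR-FKO pools, against 0.90 and 1.87 in the Ctrl pools, so the Ctrl pools lay on either side. Its change in load, the interaction of genotype and assay over all 8 libraries, was -0.08 ± 0.36 (SE), which stands beside log2 differences of 3.50 in mRNA and 3.42 in RPF. It was -0.56 without Ctrl replicate 1 and 0.39 without Ctrl replicate 2, so its sign rests on single pools. For the other members the change was between -0.47 ± 0.43 for Irf7 and 0.14 ± 0.21 for Irf3. Irf2 had 0.65 and 0.26 in HuR-FKO pools, against 0.71 and 0.85 in Ctrl pools, and a change of -0.40 ± 0.24. Among members, 0 of 8 were called for a change in load, where 0.0117% of all genes were, which is 1 gene by limma, with 688 at an unadjusted p under 0.05.

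**Figure D4:**
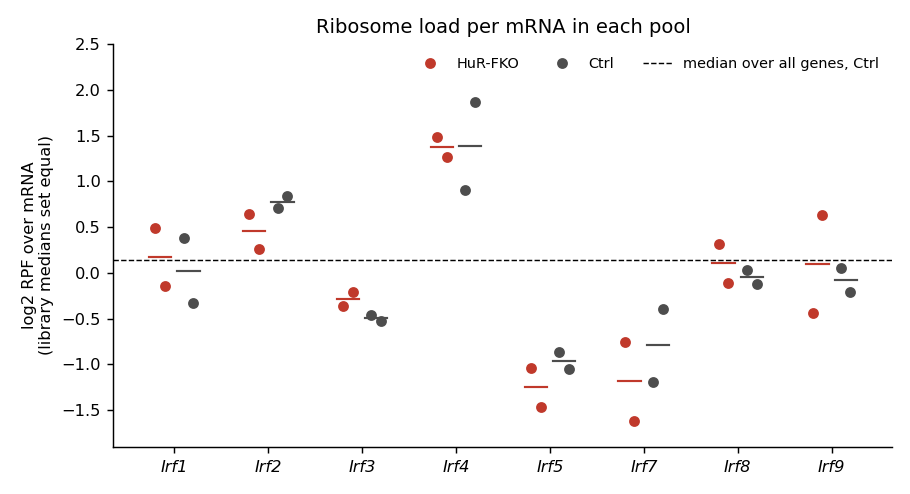
Log2 ribosome load (RPF over mRNA, library medians set equal) of each factor, with HuR-FKO left of Ctrl. Points are pools, short lines are means of 2 pools, and the dashed line is the median of all genes in Ctrl (0.14). Irf4 and Irf2 lie above the line in all 4 pools, and Irf3, Irf5 and Irf7 lie below it in all 4.

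The genes most like Irf4 across the 8 libraries were sought by Pearson's r of log2 levels centred within each assay, among 8337 other genes with a mean of at least 5 RPKM. The highest were Cd14 (0.9973), Adipor2 (0.9969), Net1 (0.9945), Serpina3b (0.9941) and Serpina3k (0.9928). The 8 libraries share 4 pools and the genotype contrast, so r is a description of these libraries alone. Cd14, a co-receptor for bacterial lipopolysaccharide, had mRNA levels of 55.9 and 53.9 RPKM in HuR-FKO, against 36.3 and 31.9 RPKM in Ctrl. Adipor2, an adiponectin receptor, had 482 and 519 RPKM in HuR-FKO, against 294 and 248 RPKM in Ctrl. Serpina3b and Serpina3k belong to a cluster of near-identical protease inhibitor genes, so their reads may be shared, and their values are uncertain. None of the other factors was as close: r with Irf4 was 0.75 for Irf2, 0.51 for Irf9, 0.44 for Irf7, 0.39 for Irf8, 0.15 for Irf5, -0.81 for Irf3 and -0.84 for Irf1.

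**Figure D5:**
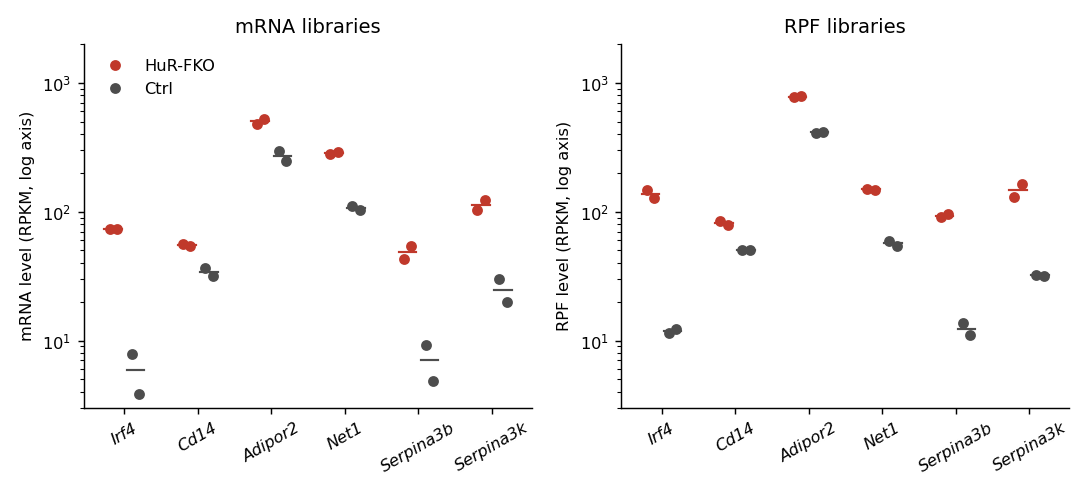
Irf4 and the 5 genes with the highest correlation with it over 8 libraries, in RPKM on a log axis, mRNA left and RPF right, with HuR-FKO left of Ctrl. Points are pools and short lines are means. All 6 genes are higher in each HuR-FKO pool than in each Ctrl pool, by differing folds.

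The genes around Irf4 in adipocyte fuel handling came from a list of 20, of which 16 were measured. By limma with adjusted p over all genes, 2 rose, 4 fell and 10 did not pass in mRNA, where 14.0% of all genes were called, with a median log2 difference of 0.01, beside 0.03 over all genes. Those that fell make fatty acids. Fasn, fatty acid synthase, had 428 and 356 RPKM in HuR-FKO, against 1633 and 1705 RPKM in Ctrl (-2.09 ± 0.12, adjusted p = 2.3e-05). Acly, which makes cytosolic acetyl-CoA, had 136 and 138 RPKM in HuR-FKO, against 507 and 588 RPKM in Ctrl (-1.99 ± 0.12, adjusted p = 2.3e-05). Acaca, which makes malonyl-CoA, fell by 1.28 ± 0.13 (adjusted p = 0.00032), and Scd1, the stearoyl-CoA desaturase, by 0.85 ± 0.13 (adjusted p = 0.0023). The genes that rose were Pnpla2, the triglyceride lipase (0.45 ± 0.12, adjusted p = 0.031), and Insr, the insulin receptor (0.65, adjusted p = 0.017), and neither passed without either HuR-FKO pool. In RPF, 3 of 16 fell, namely Fasn, Acly and Acaca, and 0 rose, where 0.444% of all genes were called. Foxo1, the known activator of Irf4, had a log2 difference of 0.13 in mRNA (adjusted p = 0.47).

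Receptors and signalling proteins of the interferon response formed 3 lists, with 4 genes called in all, where 14.0% of all genes were called in mRNA. Of 9 measured receptors, Janus kinases and Stat factors (12 listed), 2 rose in mRNA, 0 fell and 7 did not pass. Ifngr1, the ligand-binding chain of the interferon gamma receptor, had 397 and 381 RPKM in HuR-FKO, against 261 and 277 RPKM in Ctrl (0.53 ± 0.11, limma adjusted p = 0.014). Jak2, a kinase of that receptor complex, had a difference of 0.45 ± 0.12 (adjusted p = 0.039). Among 15 measured sensors and kinases upstream of Irf3, Irf5 and Irf7 (19 listed), Traf6, a ubiquitin ligase downstream of Toll-like receptors, was the gene that rose (0.64 ± 0.14, adjusted p = 0.018), 0 fell and 14 did not pass. Of 8 measured partners and co-repressors (16 listed), Irf2bpl fell (-0.48 ± 0.12, adjusted p = 0.026), 0 rose and 7 did not pass. Left without either HuR-FKO pool, 0 genes of these 3 lists passed.

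Genes that interferon induces were called in both directions. Of 31 measured (41 listed), 6 rose, 1 fell and 24 did not pass in mRNA, beside 14.0% of all genes called, with a median log2 difference of 0.19, beside 0.03 over all genes. The 4 largest rises were in Oasl2, an antiviral oligoadenylate synthetase-like protein (0.60 ± 0.12, limma adjusted p = 0.014), Trim25, which activates the RNA sensor RIG-I (0.58 ± 0.12, adjusted p = 0.012), Samhd1, a nucleotide hydrolase (0.53 ± 0.11, adjusted p = 0.015), and Parp14, an ADP-ribosyltransferase (0.51 ± 0.13, adjusted p = 0.030). Psmb9, an immunoproteasome subunit, was the gene that fell (-0.47, adjusted p = 0.036). Without either HuR-FKO pool 0 passed. In RPF, 0 of 31 passed, and 0 of the measured members of the other 3 interferon lists, beside 0.444% of all genes called. At that share a count of 0 says nothing about these genes.

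Markers of cell types known to express Irf4 were set beside its values. Of 11 markers of B cells and plasma cells, Cd74 alone was measured, with 957 and 910 RPKM in HuR-FKO mRNA, against 912 and 900 RPKM in Ctrl mRNA, and it is shared by all antigen-presenting cells. None of the others, Cd79a and Jchain among them, and 0 of 13 markers of T cells and NK cells, had a row in the table. The lowest value in any of its 8 libraries was 1.001 RPKM, so a gene low in 1 shallow RPF library can lack a row. A missing row therefore does not show that a marker or its cell type was absent. Of 6 measured dendritic cell markers (13 listed), 0 were called in mRNA, beside 14.0% of all genes. The most abundant were H2-Aa, with 583 and 583 RPKM in HuR-FKO mRNA, against 528 and 501 RPKM in Ctrl mRNA, and H2-Eb1, with 552 and 498 RPKM in HuR-FKO mRNA, against 507 and 464 RPKM in Ctrl mRNA, both chains of class II antigen presentation. Of 24 measured macrophage markers (27 listed), 9 rose, 0 fell and 15 did not pass in mRNA, beside 14.0% of all genes called, and the summed level was 4531 to 4947 RPKM in HuR-FKO, against 4389 to 4399 RPKM in Ctrl. In RPF 0 of 24 passed, beside 0.444% of all genes called. The RPF sums overlapped, with 7653 to 7758 RPKM in HuR-FKO, against 6858 to 8757 RPKM in Ctrl. Gpnmb, a lysosomal glycoprotein of lipid-laden macrophages, had 18.3 and 15.1 RPKM in HuR-FKO, against 7.65 and 4.97 RPKM in Ctrl (1.29 ± 0.20, limma adjusted p = 0.0030). Cd163, a scavenger receptor of resident macrophages, differed by 0.89 ± 0.15 (adjusted p = 0.0049), Mpeg1 by 0.71 ± 0.15 (adjusted p = 0.014) and Ms4a7 by 0.69 ± 0.16 (adjusted p = 0.019). Without HuR-FKO replicate 1, 0 macrophage markers passed, and without HuR-FKO replicate 2, 1 passed.

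Adipocyte markers were all measured, and of 14, 2 rose, 2 fell and 10 did not pass in mRNA, beside 14.0% of all genes called, with a median log2 difference of 0.02, beside 0.03 over all genes. Acsl1, a long-chain acyl-CoA synthetase, had 632 and 640 RPKM in HuR-FKO, against 378 and 369 RPKM in Ctrl (0.77 ± 0.11, limma adjusted p = 0.0020). Lep, the hormone leptin, had 219 and 223 RPKM in HuR-FKO, against 342 and 379 RPKM in Ctrl (-0.70 ± 0.11, adjusted p = 0.0041). Slc2a4, the insulin-responsive glucose transporter, differed by -0.47 ± 0.12 (adjusted p = 0.035). Without either HuR-FKO pool, 1 rose and 0 fell. The summed mRNA level of the 14 was 76200 to 79390 RPKM in HuR-FKO, against 64640 to 65530 RPKM in Ctrl. Most of the sum was Fabp4, with a mean of 38310 RPKM in HuR-FKO and 29340 RPKM in Ctrl, and Cfd, with 21190 RPKM in HuR-FKO and 17820 RPKM in Ctrl, and neither passed. In RPF 0 of the 14 passed, beside 0.444% of all genes called, with a median log2 difference of 0.145, beside -0.047 over all genes. The RPF sum was 118300 to 124000 RPKM in HuR-FKO, against 91540 to 92500 RPKM in Ctrl. The part of any cell type in the Irf4 difference was not tested.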

How the data were processed

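Reads of 8 libraries were trimmed and aligned by the authors with cutadapt 1.8.3, TopHat2 2.0.9 and Bowtie 1.0.0, per the submitters' processing notes. Genome build, annotation and counter: not given in the sources used here, since those the study names are for other RNA-seq libraries. From these the authors deposited RPKM values of coding sequences, 1 column per library, for genes above 1 RPKM. The lowest value in any library was 1.001 RPKM. Their own ratio columns were not used. Of 8245 genes with a matched GENCODE M21 coding length, 98.4% gave whole reads within 0.001 read. Totals were 5223721 to 8060054 coding reads in mRNA and 531966 to 1311977 in RPF libraries, and 23.1% to 55.5% of genes had under 20 RPF reads. Intervals cover counting error only, since PCR reads are not independent molecules.

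Values were fitted as log2(RPKM + 1), which understates changes of low genes, by limma 3.58.1 in R 4.3.3 (eBayes with trend, two-sided, Benjamini-Hochberg over 8562 genes, threshold 0.05, genes over a mean of 1 RPKM in either genotype). An exact permutation of 2 against 2 libraries cannot go below p = 0.333. The fit was also run on simulated reads with known changes. Their spread was set and not matched to these pools, so that run says little about the fit here. The members, the 10 gene lists and the naming rule were chosen with earlier results of these data known. The rule names all members, up to 4 called genes per list with the largest mRNA change (otherwise the 2 most abundant), and the 5 genes most like Irf4. Insr, Psmb9, Foxo1, Fabp4 and Cfd fall outside it and were chosen after their values were seen. The labels state that an mRNA and an RPF library came from the same pool. Deviations of such libraries from their group means correlated at 0.055 in HuR-FKO and 0.045 in Ctrl, and the pool as a block changed no member's call for load. Alternatives were another pseudocount, other filters, other scalings, a block, eBayes without trend and leaving out each pool, plus voom on the recovered reads and another centring of load, which were added after the values were seen.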

Additional observations from a re-analysis of the deposited data

How the results depend on the processing

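Irf4 was called in mRNA and in RPF under all 12 alternatives, with a log2 difference of 3.06 to 3.93 in mRNA and 3.32 to 3.51 in RPF, but these differences chose the family, so the calls are no sign of stability. The extremes in mRNA came without Ctrl replicate 2 (3.06) and without Ctrl replicate 1 (3.93). The counts of all genes moved more, and the cause was not tested. In mRNA 1202 genes were called, 2156 with the replicate number as a block, and 226 to 1642 without each pool in turn (226 and 236 when a HuR-FKO pool was left out). In RPF 38 were called, 140 with the replicate block, 4 by eBayes without trend, 169 by voom on the recovered reads, and 15 to 107 without each pool in turn. For change in load 1 gene was called, 2 by voom, and 0 to 0 without each pool in turn. Deviations of libraries with the same replicate number correlated between genotypes at 0.155 in mRNA and -0.005 in RPF. Libraries known to share a pool correlated at only 0.055 and 0.045. So these values cannot settle whether replicate numbers paired the genotypes. The load calls in Ctrl numbered 4578, and 4533 to 4921 under the alternatives; leaving out a Ctrl pool left no residual degrees of freedom there and was not run. Differences of members moved by less than the spread of the pools in 96 of 96 alternatives in mRNA and 94 of 96 in RPF. For change in load this held for 92 of 96. That tally is no sign of stability. Other filters, the block and eBayes without trend leave a difference as it is. Leaving out a pool can hardly move it past that spread. Calls in mRNA did change for Irf1, Irf2 and Irf7. Without HuR-FKO replicate 1 the mRNA differences of Irf5 and Irf8 were -0.03 and -0.04. Over all alternatives the RPF differences took both signs for Irf2 (-0.08 to 0.35), Irf5 (-0.58 to 0.38), Irf7 (-0.46 to 0.49), Irf8 (-0.16 to 0.59) and Irf9 (-0.10 to 0.84), with the extremes when a HuR-FKO pool was left out. Of Ctrl load, 64 of 64 stayed on the same side of the threshold. With 12 to 18 RPF reads of Irf4 in Ctrl and 4 of Irf5 in a HuR-FKO pool, depth limits the RPF values of both. In Ctrl, Irf5 had 15 and 8 RPF reads. The same limit holds for Irf7 and Irf8, with 7 and 6 RPF reads in HuR-FKO replicate 2.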
